A study of Neogale vison with 6 samples.

Results

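The genes examined here encode YAP and TAZ, their DNA-binding partner TEAD1, proteins of the Hippo pathway that restrain them, and the classical target genes of the YAP/TEAD complex. They were chosen by name as 10 of the 24526 genes of the count table, namely 7 pathway components (YAP1, WWTR1, TEAD1, LATS1, LATS2, AMOTL1 and AMOTL2) and 3 targets (ANKRD1, CCN1, also called CYR61, and CCN2, also called CTGF). All 10 had enough reads to be tested. Their levels were compared between untreated Mv1Lu cells (control, 3 libraries) and Mv1Lu cells subjected to cholesterol depletion (CD, 3 libraries), with poly(A) RNA-seq. Mv1Lu is an epithelial line from mink lung. For CD, the cells received 50 μM lovastatin, a statin that blocks HMG-CoA reductase, together with 50 μM mevalonate and 10% lipoprotein-deficient serum (LPDS) for 16 h. The serum of the control cells of these libraries is not stated in the sources used here, so the drug, mevalonate and the change of serum cannot be told apart.

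In the Hippo pathway, the kinases MST1 and MST2 (genes STK4 and STK3) activate the kinases LATS1 and LATS2, which phosphorylate the coactivators YAP (YAP1) and TAZ (WWTR1) and so keep them out of the nucleus. Unphosphorylated YAP and TAZ bind TEAD factors on DNA and switch on genes such as CCN1, CCN2 and ANKRD1. Angiomotins (AMOT, AMOTL1 and AMOTL2) hold YAP and TAZ at cell junctions and in the cytoplasm. YAP and TAZ also respond to the actin cytoskeleton. RNA-seq reads the mRNA of these genes and not the phosphorylation or the location of the proteins.

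The libraries held 13473820 to 18633764 reads on genes. Levels are given as CPM, the reads of a gene scaled to the reads of its library after TMM normalization. Genes were called where the quasi-likelihood test of edgeR, adjusted by Benjamini-Hochberg over all 12148 genes tested, gave an FDR under 0.05. At this threshold 24.8% of the tested genes were higher and 22.9% lower in CD. Of 6 SREBP target genes, which answer to low sterol, 5 rose, among them HMGCS1 by 10.8-fold and INSIG1 by 3.18-fold (FDR 4.17e-07 and 8.48e-06, edgeR). The epithelial keratins KRT7 and KRT19 were abundant in both groups, and both fell (FDR 1.10e-06 and 2.74e-04, edgeR). The other epithelial markers looked at were nearly absent, with 8 and 18 reads for CDH1 and 7 and 2 reads for EPCAM in the control and CD groups. The summed level of the 4 epithelial markers found was 7725 to 8377 CPM in the control and 1478 to 1945 CPM in the CD libraries. The 6 fibroblast markers summed to 306 to 384 CPM in the control and 181 to 229 CPM in CD, most of it from collagen genes, with DCN and LUM near 0. The 4 endothelial markers summed to 206 to 221 CPM and 74.9 to 123 CPM, nearly all of it TEK, with PECAM1, CDH5 and KDR near 0. The 3 immune markers summed to 0.0723 to 0.220 CPM in control and 0.737 to 0.920 CPM in CD. The part of these marker changes in the results below was not tested. In bulk RNA, fewer cells of a kind and less RNA per cell cannot be told apart.

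The libraries of the CD group differed from each other more than those of the control group. The biological coefficient of variation was 0.213 in CD and 0.0842 in control. Replicate 3 of CD had the highest share of reads outside genes within its group, at 41.4% against 31.1% and 31.8% in CD replicates 1 and 2, and 9.37% of its reads were unmapped. In the control the share outside genes was 29.3% to 47.2%.

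Of the 10 genes, 2 rose and 2 fell in CD, and 6 were not called. By role, 1 component rose (WWTR1) and 1 fell (AMOTL2), and 1 target rose (ANKRD1) and 1 fell (CCN2). Called genes thus made up 40.0% of the 10, against 47.7% of all genes tested. The groups did not overlap for 5 of the 10 genes, against 58.0% of all genes tested. On the log2 scale the median change was -0.070 among the components, -0.047 among the targets and 0.057 among all genes tested. The share of called genes was thus no higher than among other genes. The 4 calls held in all 17 alternative settings, 6 of which left out a library. Another of them used reads recovered from the deposited normalized values, which are the same counts, so its agreement was given in advance.

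**Figure D1:**
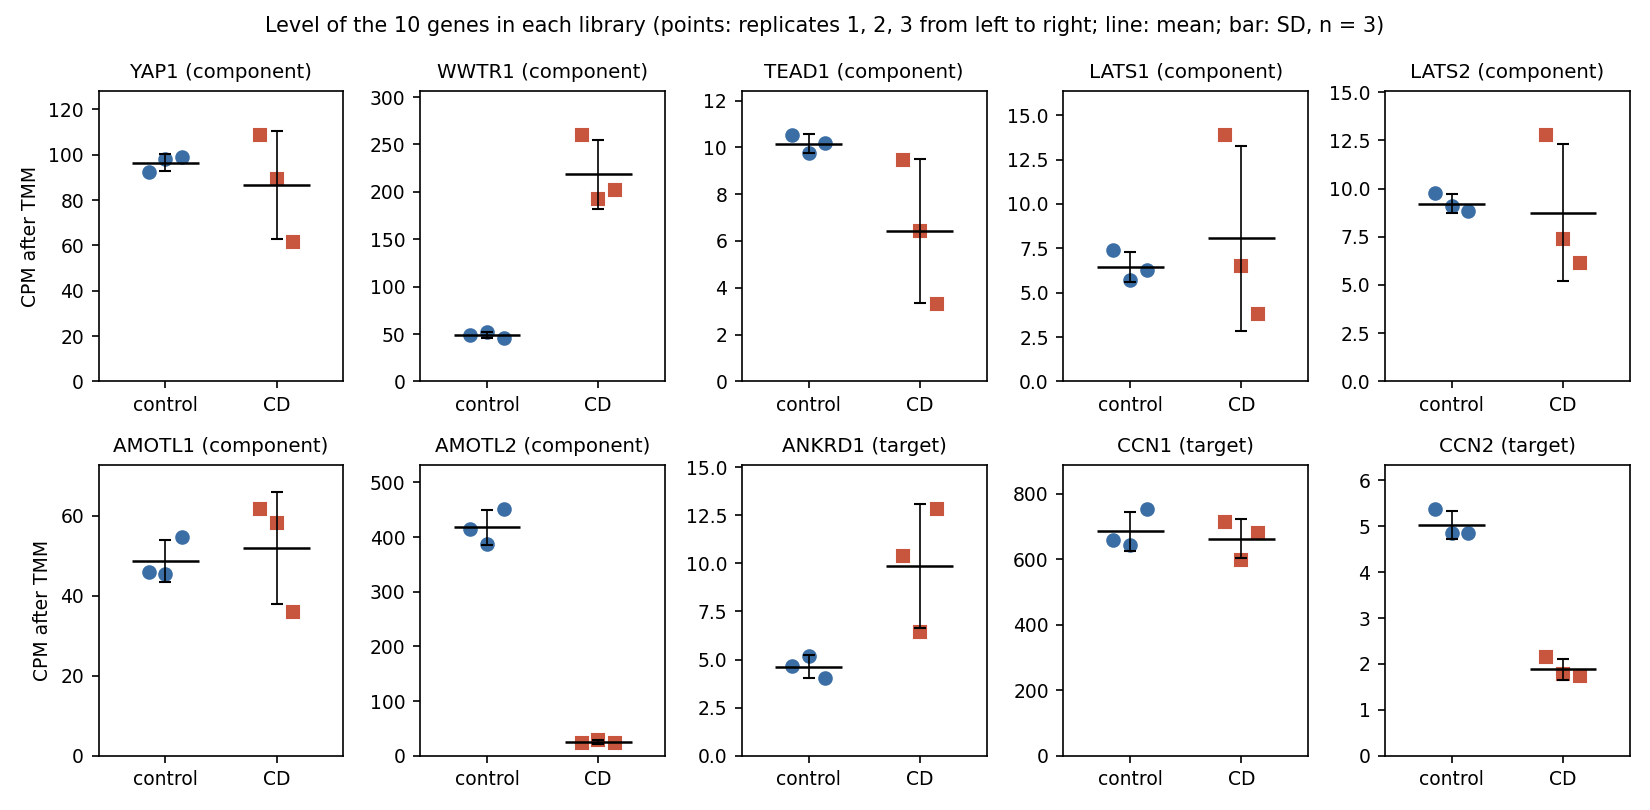
Level of each of the 10 genes in CPM after TMM normalization (vertical axes start at 0 and differ between panels), with 1 point per library, the mean as a line and the SD as a bar (n = 3). WWTR1 and ANKRD1 lie higher and AMOTL2 and CCN2 lower in all 3 CD libraries than in all 3 control libraries, while the CD libraries of YAP1, LATS1, LATS2 and AMOTL1 lie on both sides of the control libraries.

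WWTR1 (ENSNVIG00000013656) encodes TAZ, the paralog of YAP. It was at 49.0, 51.7 and 46.3 CPM in control replicates 1, 2 and 3 and at 260, 193 and 202 CPM in CD replicates 1, 2 and 3. The lowest CD library was thus well above the highest control library. The log2 fold change was 2.16 ± 0.14 (SE, FDR 2.17e-06, edgeR), which is a 4.46-fold increase with a 95% interval of 3.58 to 5.54. This put WWTR1 at rank 274 from the highest of the 12148 genes tested. Leaving out each library in turn kept the value between 2.02 and 2.21.

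YAP1 (ENSNVIG00000021587), the gene of YAP, did not follow its paralog. Its control libraries were at 92.1, 98.3 and 98.8 CPM. The CD libraries were at 109, 89.4 and 61.6 CPM, 1 above the control libraries and the others below them. Its log2 fold change was -0.15 (95% interval -0.56 to 0.25, FDR 0.51, edgeR), so that an increase of more than 1.19-fold lies outside the interval. A fall to as little as 0.68 of the control level lies within it. Without CD replicate 3 the log2 fold change was 0.0025 and without CD replicate 1 it was -0.34, and the gene was not called in any of the 17 settings.

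The different course of the paralogs was also read within each library, where the ratio of the reads does not depend on the normalization. There were 0.532, 0.526 and 0.469 reads of WWTR1 per read of YAP1 in the control libraries and 2.39, 2.15 and 3.28 in the CD libraries. On the log2 scale this ratio rose by 2.34, or 5.05-fold. The groups did not overlap (two-sided p = 0.1 in an exact permutation test, which 3 libraries against 3 cannot go below, and 0.14 after adjustment over 7 such ratios). Since the lengths of the transcripts are not taken into account, the ratio compares libraries and does not say which of the mRNAs was more abundant.

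TEAD1 (ENSNVIG00000021030) encodes a TEAD factor through which YAP and TAZ reach DNA. It was at 10.5, 9.76 and 10.2 CPM in control and at 9.46, 6.44 and 3.31 CPM in CD. All 3 CD libraries were below the control libraries, CD replicate 1 by little and CD replicate 3 by far. The log2 fold change of -0.66 (95% interval -1.34 to 0.031) did not pass the threshold (FDR 0.105, edgeR). It was -1.03 without CD replicate 1, where the gene was called (FDR 0.00920, edgeR), and -0.39 without CD replicate 3 (FDR 0.0805, edgeR). TEAD1 was also called lower with the replicate number as a block (-0.76, FDR 0.0239, edgeR). The same held with library weights in limma-voom (-0.65, FDR 0.00289).

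LATS1 (ENSNVIG00000022148) and LATS2 (ENSNVIG00000006953) encode the kinases that phosphorylate YAP and TAZ, and LATS2 is also known as a target of YAP/TEAD. LATS1 had 103, 79 and 114 reads in the control and 226, 106 and 53 reads in the CD libraries, or 7.38, 5.71 and 6.28 CPM and 13.9, 6.5 and 3.82 CPM. The CD libraries thus lay above, among and below the control libraries. For LATS1 the log2 fold change was 0.33 with a 95% interval of -0.53 to 1.19 (FDR 0.51, edgeR). It turned to -0.30 without CD replicate 1, and without CD replicate 3 it was 0.62 and called (FDR 0.0359, edgeR). LATS2 was at 9.74, 9.11 and 8.82 CPM in control and 12.8, 7.36 and 6.12 CPM in CD, with the same order of the CD libraries. Its log2 fold change was -0.070 (95% interval -0.66 to 0.52, FDR 0.84, edgeR). Leaving out CD replicate 1 gave -0.44 and leaving out CD replicate 3 gave 0.090, not called in either case. A change of up to 1.43-fold upward in LATS2 and 2.29-fold upward in LATS1 lies within the intervals. Their lower ends were at 0.63 of the control level for LATS2 and 0.69 for LATS1. Moderate changes were thus not detectable with this spread. The reads of LATS2 per read of LATS1 overlapped between the groups, at 1.32, 1.59 and 1.40 in control and 0.921, 1.13 and 1.6 in CD (exact permutation test, two-sided p = 0.4).

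AMOTL2 (ENSNVIG00000017986) encodes an angiomotin and is itself a known target of YAP/TEAD. It had the largest fold change of the 10 genes. The control libraries were at 415, 387 and 451 CPM and the CD libraries at 23.8, 28.4 and 23.0 CPM. Each CD library was far below each control library, and the CD libraries were close to each other. The log2 fold change was -4.06 ± 0.14 (SE, FDR 9.75e-08, edgeR), which makes the control level 16.6-fold that of CD. Among the 12148 genes tested, AMOTL2 stood at rank 11 from the lowest. Leaving out each library in turn kept the value between -4.19 and -4.00.

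AMOTL1 (ENSNVIG00000005602), its paralog, was at 46.0, 45.4 and 54.7 CPM in control and at 61.6, 58.2 and 35.9 CPM in CD. The CD libraries lay on both sides of the control libraries, and the log2 fold change was 0.093 (95% interval -0.34 to 0.53, FDR 0.72, edgeR). Leaving out CD replicate 1 gave -0.038 and leaving out CD replicate 3 gave 0.26 (FDR 0.0527, edgeR), again not called. The reads of AMOTL2 per read of AMOTL1 went from 9.02, 8.51 and 8.25 in control to 0.387, 0.489 and 0.641 in CD. On the log2 scale this ratio fell by 4.12 (exact permutation test, two-sided p = 0.1, adjusted 0.14). The third angiomotin gene, AMOT, was not among the 10 genes and also fell, from 40.7, 38.7 and 41.4 CPM to 9.96, 8.77 and 3.03 CPM. The change was -2.46 ± 0.33 (SE, FDR 2.16e-04, edgeR).

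**Figure D2:**
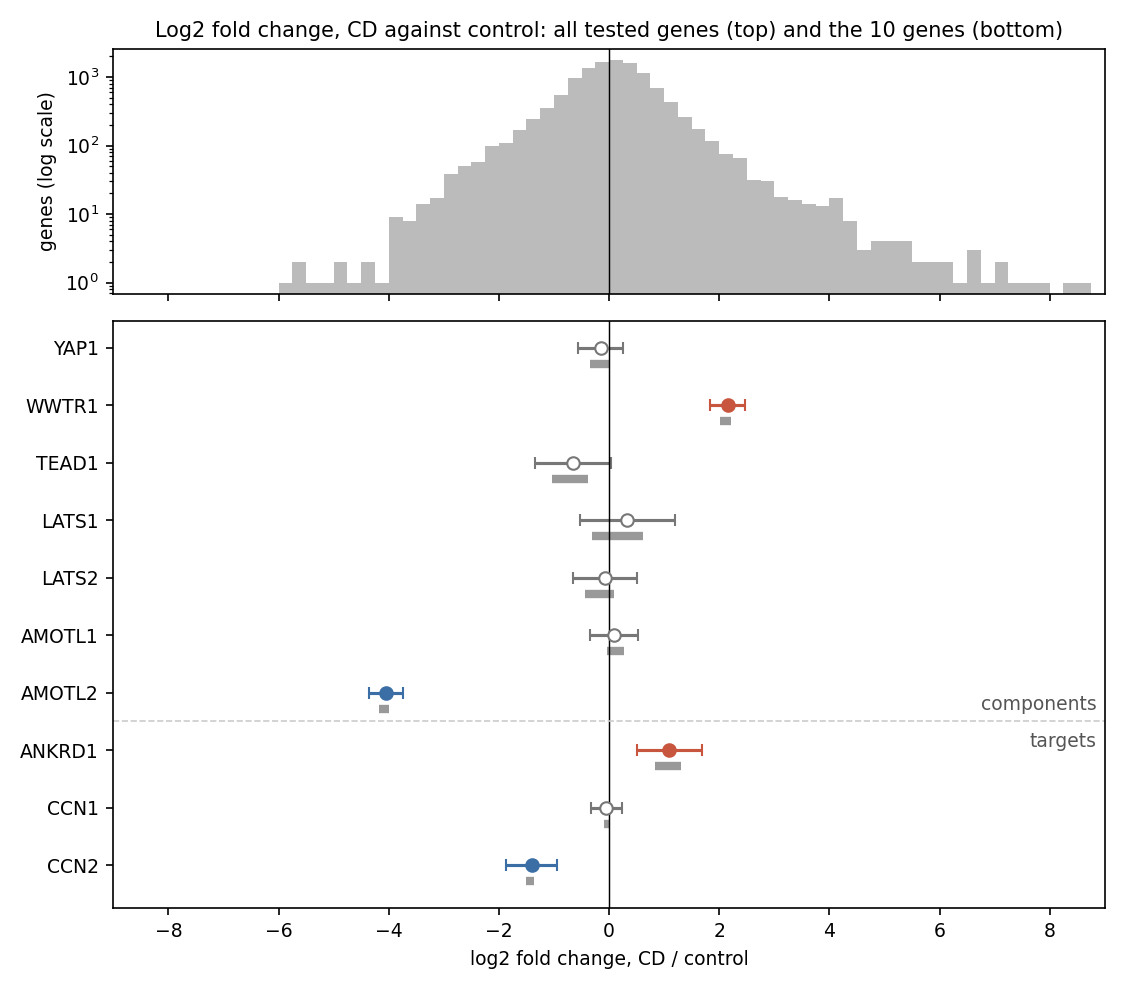
Log2 fold change of CD against control. The upper part shows the numbers of all tested genes in bins of 0.25 (log axis), and the lower part the 10 genes with their 95% intervals from edgeR (filled red, higher; filled blue, lower; open, not called) and, as grey bars, the range of values when single libraries were omitted. AMOTL2 at -4.06 and WWTR1 at 2.16 lie away from the bulk of the genes, and the intervals of YAP1, TEAD1, LATS1, LATS2, AMOTL1 and CCN1 include 0.

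The 3 targets went in different directions. CCN1 (ENSNVIG00000009667), which encodes a secreted matricellular protein, was at 658, 643 and 752 CPM in control and 712, 597 and 678 CPM in CD. The ranges of the groups overlapped. Its log2 fold change was -0.047 ± 0.12 (SE, FDR 0.77, edgeR), and the 95% interval of the fold change was 0.80 to 1.17. With the many reads of this gene, between 8897 and 13656 per library, a change of 1.5-fold in either direction lies outside the interval.

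CCN2 (ENSNVIG00000019666), a related matricellular protein also called connective tissue growth factor, was a gene of low level in these cells. It had 75, 67 and 88 reads in control replicates 1, 2 and 3 and 35, 29 and 24 reads in the CD replicates. In CPM these were 5.37, 4.84 and 4.85 against 2.15, 1.78 and 1.73, with each CD library below each control library. The log2 fold change was -1.40 ± 0.21 (SE, FDR 3.93e-04, edgeR), so that the control level was 2.65-fold that of CD. Omitting single libraries gave values between -1.5 and -1.36. The reads of CCN1 per read of CCN2 rose from 122, 132 and 154 to 326, 330 and 384, a change of 1.35 on the log2 scale (exact permutation test, two-sided p = 0.1, adjusted 0.14).

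ANKRD1 (ENSNVIG00000020419), which encodes a cardiac ankyrin repeat protein that also acts in the nucleus, went the other way. It had 65, 72 and 73 reads in the control and 169, 105 and 178 reads in the CD libraries, or 4.66, 5.20 and 4.02 CPM and 10.4, 6.44 and 12.8 CPM. All 3 CD libraries were above the control libraries, CD replicate 2 by the least. Its log2 fold change was 1.09 ± 0.26 (SE, FDR 0.00654, edgeR), or 2.14-fold with a 95% interval of 1.42 to 3.21. Without CD replicate 3 the value was 0.83, and it was still called (FDR 7.64e-04, edgeR). The smallest value of the 17 settings was 0.67, with library weights in limma-voom, where the gene was called as well.

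The targets were also set against YAP1 within each library. There was 0.0509, 0.0533 and 0.0410 of a read of ANKRD1 per read of YAP1 in control and 0.0958, 0.0723 and 0.209 in CD, a rise of 1.23 on the log2 scale. For CCN2 the ratios were 0.0587, 0.0496 and 0.0493 in control and 0.0201, 0.0202 and 0.0286 in CD, a fall by 1.21 on the log2 scale. Neither ratio overlapped between the groups (exact permutation test, two-sided p = 0.1, adjusted 0.14). The ratio of CCN1 to YAP1 differed by 0.15 on the log2 scale and overlapped, at 7.14, 6.54 and 7.61 in control and 6.55, 6.67 and 11.01 in CD (exact permutation test, two-sided p = 0.8).

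The CD libraries ranked alike in most of the components. CD replicate 3 was the lowest CD library for 6 of the 7 components, all but WWTR1, and CD replicate 1 was the highest for 6 of the 7, all but AMOTL2. Over all genes tested, these shares were 41.0% and 36.8%. The order was not particular to the components. CD replicate 3 was also the lowest for 18 of the 25 upstream and core Hippo genes and 14 of the 20 other targets. The distance between the highest and the lowest CD library on the log2 scale was 0.82 for YAP1, 1.48 for TEAD1, 1.83 for LATS1, 1.05 for LATS2 and 0.78 for AMOTL1, while over all tested genes the median was 0.47. In the control libraries the same 5 genes spanned 0.10 to 0.36. The CD libraries of the called genes AMOTL2, WWTR1, CCN2 and ANKRD1 spanned 0.30, 0.43, 0.30 and 0.98, and those of CCN1, which was not called, 0.25. CD replicate 3 was also the CD library with the most reads outside genes, and the part of this in the ranking was not tested.

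**Figure D3:**
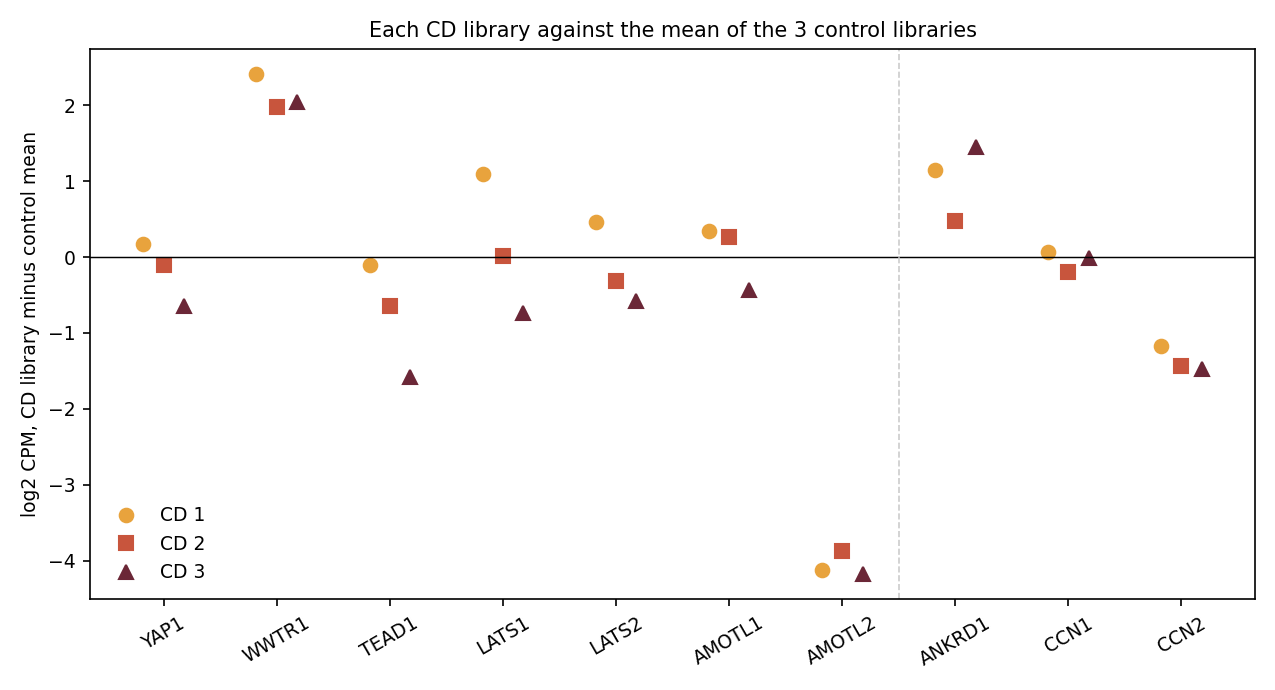
Log2 CPM of each CD library minus the mean of the 3 control libraries, for the 7 components (left of the dashed line) and the 3 targets. The 3 CD libraries lie within 0.31 of each other for AMOTL2, CCN1 and CCN2, and spread from 1.10 to -0.73 for LATS1 and from -0.10 to -1.58 for TEAD1.

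To place the 10 genes within the pathway, other genes of it were followed from lists. Of 30 upstream and core Hippo genes, which act before, with or after LATS1 and LATS2, 28 were found by symbol. The list mixes genes of different roles, so counts over it give no direction for the pathway. Of the 25 that could be tested, 7 rose and 9 fell, so that 64.0% were called, against 47.7% of all genes tested, and the median log2 fold change was -0.020. The higher genes included FAT4, a large cadherin (log2 fold change 2.4), TAOK3, a kinase that acts on MST kinases (1.96), SAV1, the scaffold of the MST kinases (1.22), and MAP4K5, a kinase that can act on LATS (0.92; edgeR, FDR 3.90e-04, 4.67e-06, 3.45e-04 and 0.0169). MAP4K5 was not called without control replicate 2 or 3. The lowest after AMOT were PTPN14, a phosphatase that binds YAP (-1.70), and the LIM proteins WTIP and AJUBA, which bind LATS kinases (-1.56 and -1.31; edgeR, FDR 0.00554, 1.98e-04 and 8.92e-05). AJUBA and PTPN14 are also known targets of YAP/TEAD. PTPN14 was not called when no filter on low counts was used (FDR 0.0536, edgeR), and leaving out CD replicate 1 or 3 gave -2.32 or -1.37. The KIBRA family, WWC1, WWC2 and WWC3, scaffolds that promote LATS activity, was picked out after its values were seen, and its log2 fold changes were -0.81, -1.08 and -0.54, each called (edgeR, FDR 9.34e-04, 0.00188 and 0.0397). WWC3 was not called in 5 of the 17 settings, among them those that left out control replicate 1, 2 or 3. Another 5 core genes were also picked out after their values were seen. STK4, MOB1A, MOB1B and NF2 were not called and had log2 fold changes of 0.043, 0.31, -0.020 and 0.15, while STK3 rose by 0.71 (FDR 0.0177, edgeR), a call that was lost without control replicate 1 or 3 or CD replicate 1. Without CD replicate 3, MOB1A (0.42, FDR 0.0144, edgeR) and NF2 (0.27, FDR 0.0332, edgeR) were called higher, while without CD replicate 1 MOB1A was at 0.068 and not called.

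Among the TEAD factors and their co-factors, 6 of 7 genes were tested, and 1 was higher and 2 lower, which is 50.0% called, close to the 47.7% of all genes tested. TEAD4 was at 48.2, 46.9 and 48.9 CPM in control and 26.7, 26.7 and 29.5 CPM in CD, a log2 fold change of -0.80 ± 0.12 (SE, with an FDR of 4.45e-04 in edgeR). TEAD2 was at 72.4, 71.7 and 78.5 CPM and rose to 100.0, 107 and 101 CPM (0.47 ± 0.11 on the log2 scale, SE, with an FDR of 0.00508 in edgeR). Both had CD libraries close to each other, unlike TEAD1. TEAD3 had a log2 fold change of 0.27 and was not called (FDR 0.11, edgeR), but it was called without CD replicate 3 (0.32, FDR 0.0146, edgeR) and with library weights in limma-voom (FDR 0.00207). VGLL3, a protein that competes with YAP for TEAD, had few reads and a log2 fold change of -1.27 (FDR 0.0378, edgeR), and it was not called in 6 of the 16 settings in which it was tested, among them those without control replicate 1, 2 or 3 or CD replicate 2. Leaving out CD replicate 1 gave -2.22 (FDR 1.95e-04, edgeR).

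A further 25 known targets of YAP/TEAD were examined, of which 23 were found and 20 tested. There were 5 that rose and 8 that fell, and the median was -0.22 on the log2 scale. Without CD replicate 3 the numbers were 8 and 8, and over all genes 3616 were then called higher and 3606 lower. Taken with ANKRD1, CCN1, CCN2, AMOTL2 and LATS2, 24.0% of 25 target genes were higher and 40.0% lower, beside the 24.8% and 22.9% of all genes tested. NUAK2, a kinase, rose by 2.20 on the log2 scale, TGM2, a transglutaminase, by 1.5, and GADD45A, a gene of the response to stress and DNA damage, by 1.41 (edgeR, FDR 8.43e-07, 9.62e-05 and 4.75e-05). The lowest were BIRC5 (survivin, also a gene of mitosis) at -2.4, IGFBP3, a binding protein of insulin-like growth factors, at -1.72, PTPN14 at -1.70, and the receptor kinase AXL at -1.52 (edgeR, FDR 4.71e-06, 3.47e-05, 0.00554 and 7.41e-04). Of the 25 tested targets with the members included, 5 rose and 8 fell by at least 2-fold. Over all 12148 genes tested, these numbers were 1283 (10.6%) and 1171 (9.64%). Of the 13 called genes outside the 10, 12 were called in all 17 settings, the exception being PTPN14.

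**Figure D4:**
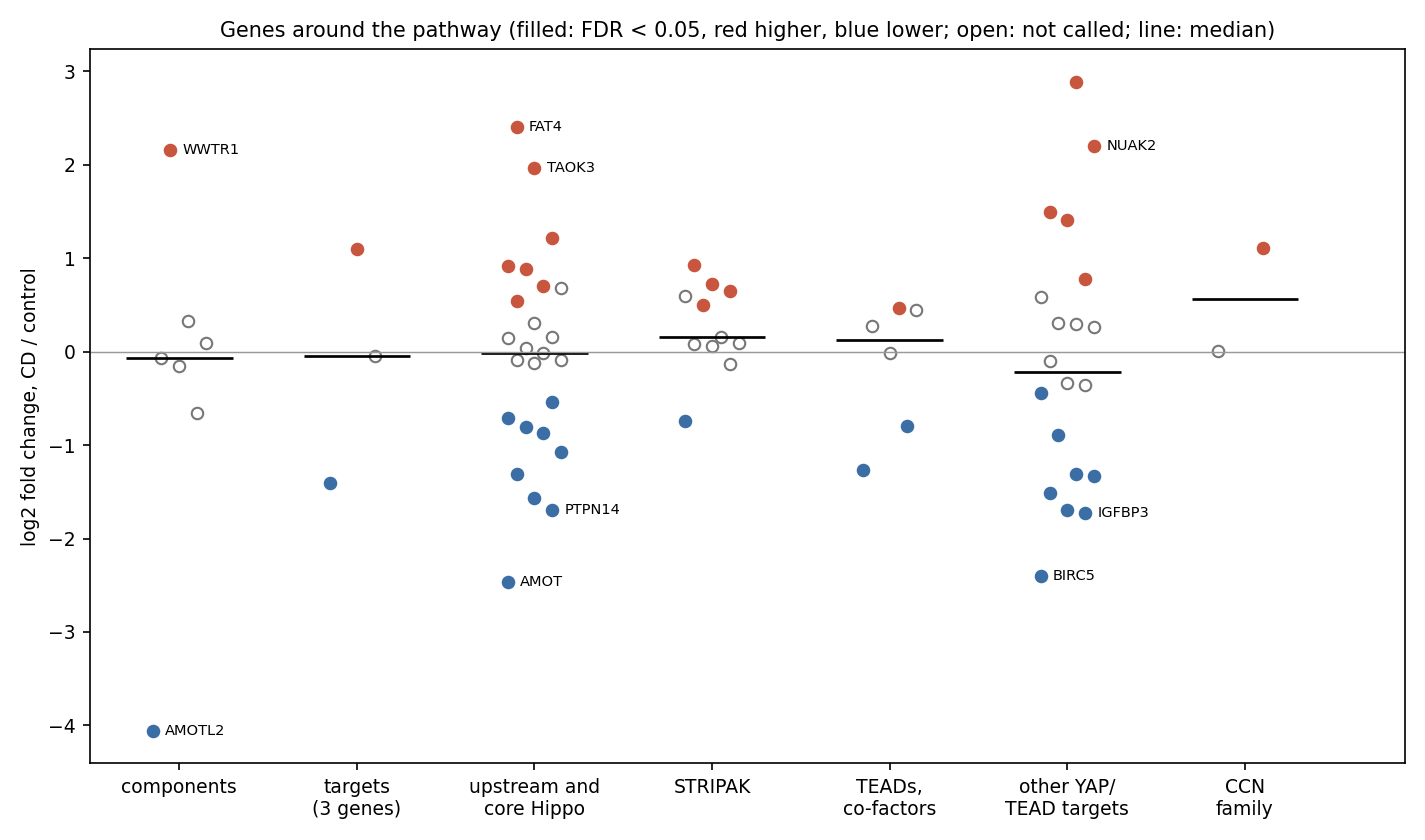
Log2 fold change of CD against control of the tested genes of each list, with 1 point per gene (filled red, called higher; filled blue, called lower; open, not called at an FDR of 0.05 in edgeR) and the median as a line. AJUBA and PTPN14 stand in 2 lists. The upstream, STRIPAK, TEAD and target lists each hold genes that rose and genes that fell, and AMOTL2 at -4.06 is the lowest point.

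CCN1 and CCN2 belong to a family of 6 genes. CCN5 and CCN6 had at most 9 reads in a library and were not tested. CCN3 was not called, with a log2 fold change of 0.012 ± 0.10 (SE, with an FDR of 0.93 in edgeR). CCN4 rose from 15.3, 13.8 and 13.9 CPM to 39.1, 30.2 and 23.5 CPM (log2 fold change 1.11, FDR 0.00107, edgeR). Within the family, 1 of the 4 tested genes was thus higher, 1 was lower and 2 were not called, a share close to the 47.7% called among all genes tested.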

How the data were processed

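The authors prepared 3 control and 3 CD libraries by poly(A) selection (Nextera XT), and the groups come from the sample labels. According to the methods, reads were trimmed with fastp 0.20.1, aligned to the mink assembly with STAR 2.7.2a and compared with DESeq2 1.30.1 in R 4.0.3. The authors deposited raw counts per gene and, per library, a normalized signal, the count divided by a size factor. In the normalized files, identifiers do not stand beside their own values, so these were paired with genes by row and served only as an alternative. They gave back whole reads (within 0.01) for 100% of 147156 values, and edgeR on these reads called 3016 genes higher and 2784 lower. By row, 100% of these reads equaled the raw counts, so this setting could only repeat the main fit. The counting program and its use of strand are not given in the sources used here, so overlapping and antisense genes are uncertain. Totals without a gene name (4 rows) were left out and held 29.3% to 47.2% of the reads per library.

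Genes were tested on the counts in edgeR 4.0.16 under R 4.3.3 (filterByExpr, minimum count 10 and minimum total count 15, TMM, glmQLFit with robust estimation, glmQLFTest, condition as the only term), with Benjamini-Hochberg adjustment over all genes. A standard error is the log2 fold change divided by the square root of F, and 95% intervals use the degrees of freedom of the fit. Read ratios within libraries had 0.5 added to each count. Alternatives used DESeq2 1.42.0, limma 3.58.1 and other scalings and filters. The fits were also run on simulated data with the same spread in both groups. That run does not show how they behave with the unequal spread of these CD and control libraries. The labels do not say whether libraries came from separate cultures, so p-values measure the spread between these libraries.

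The members and lists were chosen with earlier results of these data known. The genes named are the 10 members, HMGCS1 and INSIG1, and of each list at most the 4 highest and 4 lowest called genes. The WWC genes, STK3, STK4, MOB1A, MOB1B, NF2, TEAD3, CCN3 and the marker genes fall outside this rule and were singled out after their values were seen. The list genes CSNK1E, BTRC, SIKE1, FGFR1OP2, VGLL1, AREG, CCND1, KRT8, KRT18 and CD3E were not found by symbol, and MOB4 and SQLE stood under the symbols PHOCN and ERG1. Promoter and protein sequences were not used here, and 1 of the highest called targets and 1 list are not reported here.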

Additional observations from a re-analysis of the deposited data

How the results depend on the processing

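Of 170 values of the 10 genes under 17 alternative settings, 159 kept their direction and their side of the threshold, and no called gene changed sign. The setting on reads recovered from the normalized values repeats the main fit and was bound to keep them. The components called higher numbered 1 to 2 with each library left out in turn (2 without CD replicate 3, where LATS1 was added), and those called lower 1 to 2 (2 without CD replicate 1, where TEAD1 was added). TEAD1 also made 2 lower components with library weights in limma-voom (FDR 0.00289) and with the replicate block (FDR 0.0239). The other targets called higher numbered 8 with library weights, and 5 to 8 with each library left out in turn (8 without CD replicate 3). The cause of these differences was not tested.

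The replicate numbers were not taken to pair the libraries, since the deviations of same-numbered libraries from their group means had correlations of -0.024, -0.33 and -0.18, and not every library correlated best with its own number. The block left 2772 higher and 2636 lower genes of all tested and moved no other call of the 10 genes.

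The planned search for the TEAD motif in promoters was not run, as no sequences were at hand. LATS1, LATS2, TEAD1, ANKRD1 and CCN2 had 24 to 226 reads per library. The part of counting error in the spread of these genes was not tested.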

Other observations

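STRIPAK is a phosphatase complex that removes the activating phosphate from MST kinases. Of 13 genes of the complex, 11 were tested, and 4 were higher and 1 was lower in CD, so that 45.5% were called, close to the 47.7% of all genes tested. The catalytic subunits PPP2CB and PPP2CA rose by 0.93 and 0.50 on the log2 scale, and STRN3 and SLMAP, which target the complex, by 0.72 and 0.65 (edgeR, FDR 2.53e-04, 0.00984, 0.0296 and 0.00887). STRIP2 fell by 0.75 on the log2 scale (FDR 0.00349, edgeR). PPP2CB and STRIP2 were called in all 17 settings, and STRN3 in 12 of them. STRN3 lost its call when any control library or CD replicate 1 was left out, PPP2CA without control replicate 1 or 3, and SLMAP without control replicate 3.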
